A study of Rattus norvegicus with 6 samples.

Results

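The miR-7 family of the rat lens was followed through small RNA libraries from the capsular membrane of 6 lenses. Its members were the names of the miRNA count table that begin with rno-miR-7a or rno-miR-7b, with the 3p arms included, which gave 4 of the 910 names listed: miR-7a-5p, miR-7b, miR-7a-1-3p, and miR-7a-2-3p. The names fixed the members, but the family was selected on the levels of miR-7a-5p and miR-7b in the 2 groups, which were already known, so the levels of its members in the groups are given as a description, without a test.

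All 6 libraries came from Sprague Dawley rat pups, which were 8 days old at the start according to the methods. The control group (3 libraries, titled WT) received saline under the skin of the neck on days 3, 5, and 7. The Na2SeO3 group (3 libraries, titled Model) received sodium selenite at 20 μmol/kg on the same days, a treatment that clouds the lens of young rats, and lenses of both groups were taken on day 15. The capsular membrane carries the lens epithelium on its inner side, and each library is a bulk sample, in which fewer cells of a type and less RNA per cell cannot be told apart. Nothing in the labels ties a control library to an Na2SeO3 library.

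The libraries held between 663096 and 2829903 counts, and the 3 Na2SeO3 libraries held the fewest. The paper lists more raw reads for Na2SeO3 libraries 2 and 3 than for control libraries 1 and 3, so a smaller part of their reads was counted. The reason was not tested. Counts were scaled between libraries with the TMM method of edgeR, which assumes that the bulk of miRNAs keep their level, and the scaled values are called normalized CPM (counts scaled to a common total). A count of 0 allows a level of up to 3 counts, which is 1.06 to 1.66 CPM of the library total in the control group and 3.10 to 4.52 CPM in the Na2SeO3 group. All limits and intervals cover the counting error of reads within a library and leave out the spread between lenses. The reads carried no molecular identifiers. Among the markers of the labelled tissue, miR-184, an abundant miRNA of lens and cornea, averaged 81459 CPM in the control group and 37254 CPM in the Na2SeO3 group, and all 8 listed names of the lens epithelium list were counted.

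A miRNA guides the silencing machinery to messenger RNAs through its seed, the bases from position 2 to position 8 counted from the 5′ end. The miR-7 family is among the oldest animal miRNAs and is known from pancreatic islets, pituitary, brain, and retina. In the forebrain and in the islets it represses Pax6, the transcription factor without which no lens is formed, and in neurons it is bound by the circular RNA Cdr1as, which miR-671 can cleave.

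The 4 mature sequences are shown because the comparison between miR-7a and miR-7b rests on a single base. All 4 names were found in the RefSeq table of assembly GRCr8, and the capitals mark the seed.
rno-miR-7a-5p: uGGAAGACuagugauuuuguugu
rno-miR-7b: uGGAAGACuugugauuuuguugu
rno-miR-7a-1-3p: aCAACAAAucacagucugccau
rno-miR-7a-2-3p: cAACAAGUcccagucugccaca
Counted from the 5′ end of miR-7a-5p, the only substitution between miR-7a-5p and miR-7b is A10U, just past the seed. The seed is therefore the same in both. Of the 693 mature names in the RefSeq table, these 2 were the only ones with that seed.

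In all, 3 genes give these RNAs in GRCr8, all on the plus strand. The table of counts does not name its build, so the positions are those of the reference alone. One copy of miR-7a-5p lies at chr17:6278710-6278732 and its 3p arm, miR-7a-1-3p, at chr17:6278751-6278772, both in the gene Mir7-1 within the bounds of Hnrnpk, which codes for an RNA-binding protein. The other copy lies at chr1:142215818-142215840 with miR-7a-2-3p at chr1:142215856-142215877, in the gene listed as Mir8 with the older name Mir7a-2, within the long non-coding RNA gene LOC120099863. miR-7b lies at chr9:1167464-1167486, in the gene listed as Mir9 with the older name Mir7b, within the bounds of the pseudogene Rpl35l3. Whether each lies in an exon or an intron of the surrounding gene is not given in the sources used here. A read of miR-7a-5p can come from either copy, and only the 3p arms tell the copies apart.

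miR-7a-5p was one of the abundant miRNAs of the lens capsule, 18th by mean level among the 341 miRNAs that passed the filter on low counts (a minimum count of 10 in edgeR's filterByExpr). It was counted 27513, 26092, and 23994 times in control libraries 1 to 3, which corresponds to 9504, 13495, and 15527 normalized CPM. In Na2SeO3 libraries 1 to 3 it was counted 5556, 8932, and 6944 times, or 8090.3, 8109, and 7638 normalized CPM. Every control library lay above every Na2SeO3 library, although control library 1 was close to the Na2SeO3 group. The control group averaged 12842 ± 3064 CPM and the Na2SeO3 group 7945 ± 267 CPM (SD, n = 3 each). The fitted log2 fold change of Na2SeO3 over control was -0.69 (standard error 0.17).

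miR-7b had a lower level and a larger difference between the groups. Control libraries 1 to 3 held 453, 573, and 615 CPM of it (1310, 1107, and 950 counts). In Na2SeO3 libraries 1 to 3 they were 192, 225, and 220.0 CPM (132, 248, and 200 counts). The lowest control library held more than 2 times the highest Na2SeO3 library in normalized CPM. With library size only the margin was narrower, at 463 against 256 CPM. Means were 547 ± 84.2 CPM (SD, n = 3) and 212 ± 17.7 CPM (SD, n = 3), a 2.57-fold lower level in the Na2SeO3 group, where that of miR-7a-5p was 1.62-fold lower. The fitted log2 fold change of miR-7b was -1.36 (standard error 0.17), the 8th lowest of the 341 miRNAs tested, and that of miR-7a-5p was the 39th lowest.

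miR-7a-1-3p, the 3p arm that marks the copy in Hnrnpk, overlapped between the groups, unlike its 5p partner. It stood at 25.6, 39.8, and 42.7 normalized CPM in control libraries 1 to 3 and at 29.1, 39.9, and 49.5 CPM in Na2SeO3 libraries 1 to 3. Neither group was high or low throughout. The means were 36.0 ± 9.18 CPM and 39.5 ± 10.2 CPM (SD, n = 3 each), and the fitted log2 fold change was 0.16 (standard error 0.27), which is less than the spread between libraries. Between 20 and 77 reads per library lay behind these values. Its sign turned to -0.052 when control library 1 was left out and to -0.029 without Na2SeO3 library 3.

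miR-7a-2-3p, the 3p arm that marks the copy on chromosome 1, was the rarest member and did not pass the filter. It was counted 3, 3, and 8 times in control libraries 1 to 3 and 5, 7, and 4 times in Na2SeO3 libraries 1 to 3. No library held more than 8 of its reads. The normalized values ran from 1.04 to 5.18 CPM in the control group and from 4.40 to 7.28 CPM in the Na2SeO3 group, and they overlapped. With library size only they did not, at 1.06 to 4.43 against 4.56 to 7.54 CPM, a gap of less than 1 read.

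**Figure D1:**
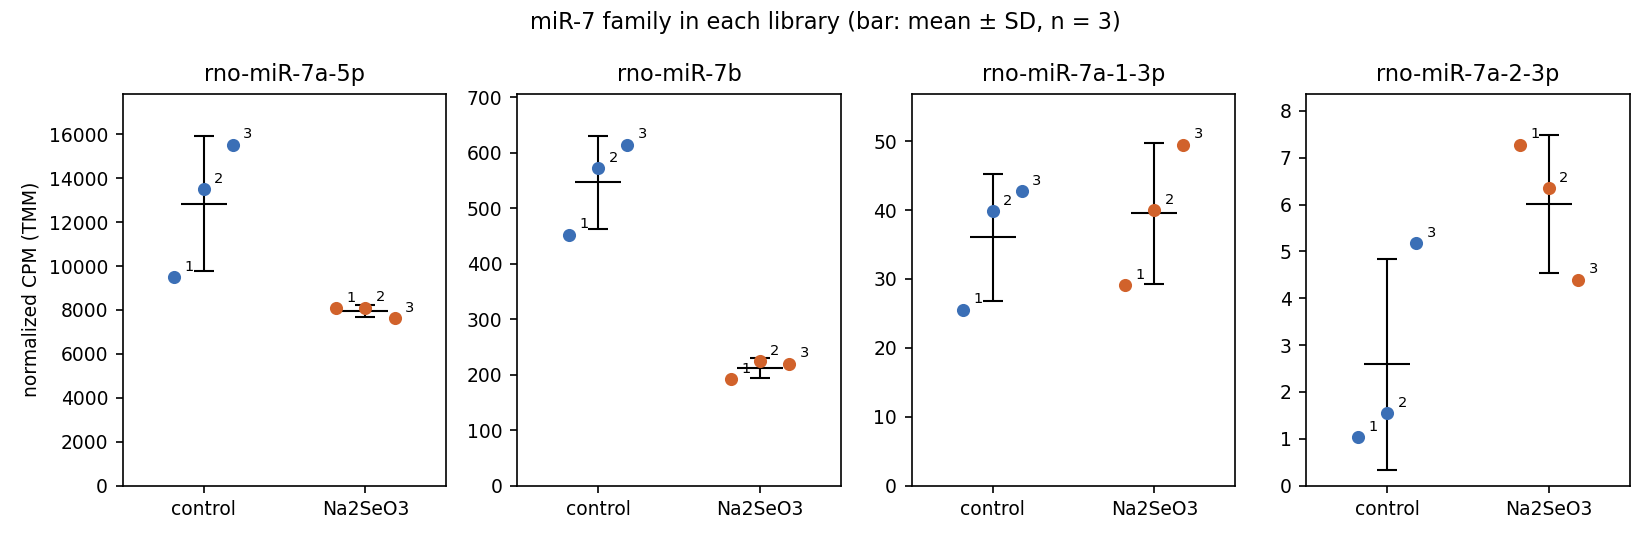
Normalized CPM (vertical axis, from 0, a separate scale per panel) of the 4 members in the control and Na2SeO3 groups, with each point a library labelled by its number and the bar the mean ± SD of 3 libraries. The 2 members with the shared seed are lower in all Na2SeO3 libraries (miR-7b at 192 to 225 CPM against 453 to 615 CPM), and the 2 3p arms overlap (miR-7a-2-3p does not with library size only).

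Of the 3 members that passed the filter, 2 had groups that did not overlap, both lower in the Na2SeO3 group, as were 21.1% of the 341 miRNAs tested (46.3% in either direction). Of the 3, miR-7b alone lay beyond a log2 fold change of 1 in size. By the thresholds of the study's methods, which ask for both an adjusted p-value under 0.05 from edgeR and an absolute log2 fold change over 1, 16.4% of the 341 miRNAs in the fit were DEmiRNAs and 4.99% were down-regulated ones. These shares are over the whole fit, in which the 3 members were included. Nothing is read from these counts for the family, since its difference was known when it was chosen. The direction of both miRNAs was the same under the 4 scalings tried. Library size alone moved the median over all miRNAs tested from a log2 fold change of 0.08 to 0.27. Relative to that median, miR-7a-5p stood at -0.77 with TMM and at -0.74 with library size only, and miR-7b at -1.44 and -1.42.

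**Figure D2:**
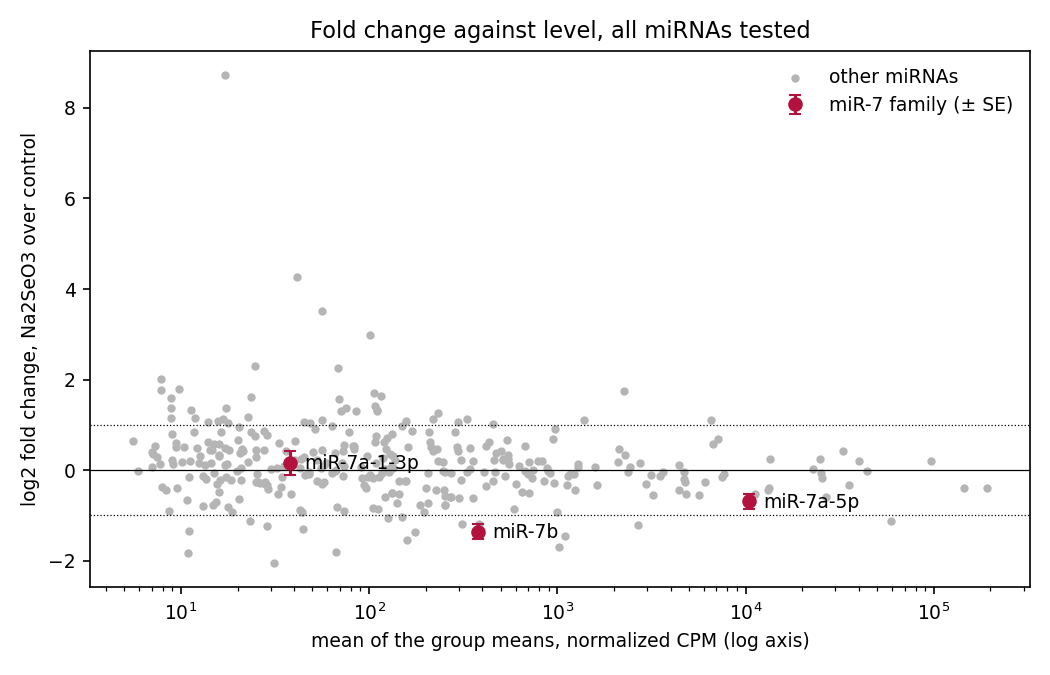
Fitted log2 fold change of Na2SeO3 over control (vertical axis) against the mean of the group means in normalized CPM (horizontal log axis) for the 341 miRNAs tested, with the 3 miR-7 members that passed the filter in red and bars of ± 1 standard error. Dotted lines mark a log2 fold change of 1 and -1. miR-7b lies below the lower line at -1.36, miR-7a-5p above it at -0.69, and miR-7a-1-3p near 0 at 0.16.

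The balance between miR-7b and miR-7a-5p does not depend on the scaling, because both are counted in the same library. miR-7b made up 4.54%, 4.07%, and 3.81% of the reads of the pair in control libraries 1 to 3. In Na2SeO3 libraries 1 to 3 it made up 2.32%, 2.70%, and 2.80%. The exact 95% binomial intervals (Clopper-Pearson), which describe the reads of 1 library and not the groups, were 3.57% to 4.05% in control library 3 and 2.43% to 3.21% in Na2SeO3 library 3. This share is made of the values on which the family was selected. The group means were 4.14% ± 0.37 and 2.61% ± 0.25 (SD, n = 3 each). Put as a ratio, there were 23.3 ± 2.14 reads of miR-7a-5p for each read of miR-7b in the control group and 37.6 ± 3.94 in the Na2SeO3 group (SD, n = 3 each). On the log2 scale the ratio of miR-7b to miR-7a-5p was lower in the Na2SeO3 group by a difference of -0.69, and it stayed between -0.75 and -0.60 when each library was left out in turn.

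The share of the 3p arms of miR-7a is not independent of the selection either, since its denominator is mostly miR-7a-5p and the level of miR-7a-1-3p overlapped between the groups. The 5p arm dominated in every library. The 3p arms of both copies together were 0.279%, 0.306%, and 0.307% of all miR-7a reads in control libraries 1 to 3. They were 0.448%, 0.568%, and 0.701% in Na2SeO3 libraries 1 to 3, so that the groups did not overlap, with means of 0.297% ± 0.016 and 0.572% ± 0.126 (SD, n = 3 each). Few reads lay behind these shares, and the interval of Na2SeO3 library 1 ran from 0.290% to 0.661% on 25 reads. For each read of miR-7a-1-3p there were 358 ± 17.1 reads of miR-7a-5p in the control group and 212 ± 62.2 in the Na2SeO3 group (SD, n = 3 each).

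Between the copies, miR-7a-1-3p supplied most of the 3p reads. Control libraries 1 to 3 gave it 96.1%, 96.2%, and 89.2% of both 3p arms, and Na2SeO3 libraries 1 to 3 gave it 80.0%, 86.3%, and 91.8%. With 25 to 80 reads per library the exact 95% intervals were wide, down to 59.3% in Na2SeO3 library 1, and the groups overlapped. A difference between the groups in the use of the copies was not tested. The 3p arms can be told apart in sequence, since 3 of the 21 bases that they share in position differ when miR-7a-2-3p is laid against miR-7a-1-3p from its second base.

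**Figure D3:**
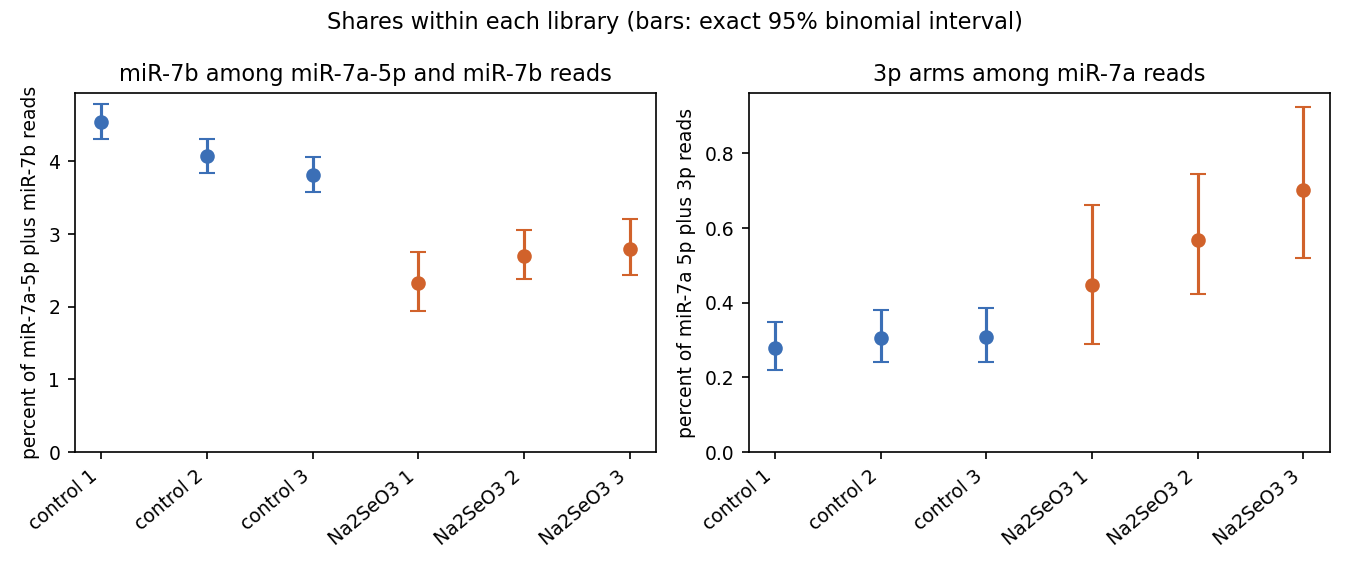
Percent of miR-7b among the reads of miR-7a-5p and miR-7b (left) and percent of both 3p arms among all miR-7a reads (right) in each of the 6 libraries, with exact 95% binomial intervals for counting error. On the left the control libraries lie at 3.81% to 4.54% and the Na2SeO3 libraries at 2.32% to 2.80%, and on the right the Na2SeO3 libraries lie higher, at 0.448% to 0.701%.

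The family as a whole took a smaller share of the counted reads in the Na2SeO3 group. All members together made up 1.02%, 1.31%, and 1.38% of the counts in control libraries 1 to 3 and 0.862%, 0.953%, and 0.819% in Na2SeO3 libraries 1 to 3. The means were 1.24% ± 0.19 and 0.878% ± 0.069 (SD, n = 3 each), and the groups did not overlap. miR-7a-5p was between 95.2% and 97.3% of these reads, so the total mostly shows that member.

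Other rat miRNAs differ from a relative by 1 base, and they give a scale for the difference between miR-7a-5p and miR-7b. This comparison was chosen after the values of the family were seen. Of the 326 rat miRNAs tested, 296 had a mature sequence in the RefSeq table, and 20 pairs of them differed at 1 base when laid from their first base, with lengths that differed by at most 1 base. The fold changes of the members of a pair differed by 0.20 on the log2 scale at the median. The difference in miR-7 was the widest of the 20, with the less abundant member at -1.36 and the more abundant one at -0.69. The next widest was that of miR-135a-5p (0.03) and miR-135b-5p (0.51), and miR-204-5p and miR-211-5p, which share an eye-enriched family, stood at -0.40 and -0.19. The place of miR-7 carries no weight of its own because the pair had been picked for this difference, and the pairs are not independent, since several share a member. How the authors' counting divided reads that differ at 1 base was not tested. The table lists miR-129-1-3p and miR-129-2-3p with the same counts in every library, as it does let-7a-1-3p and let-7c-2-3p. Reads of miR-7a-5p and miR-7b were not tied in this way.

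**Figure D4:**
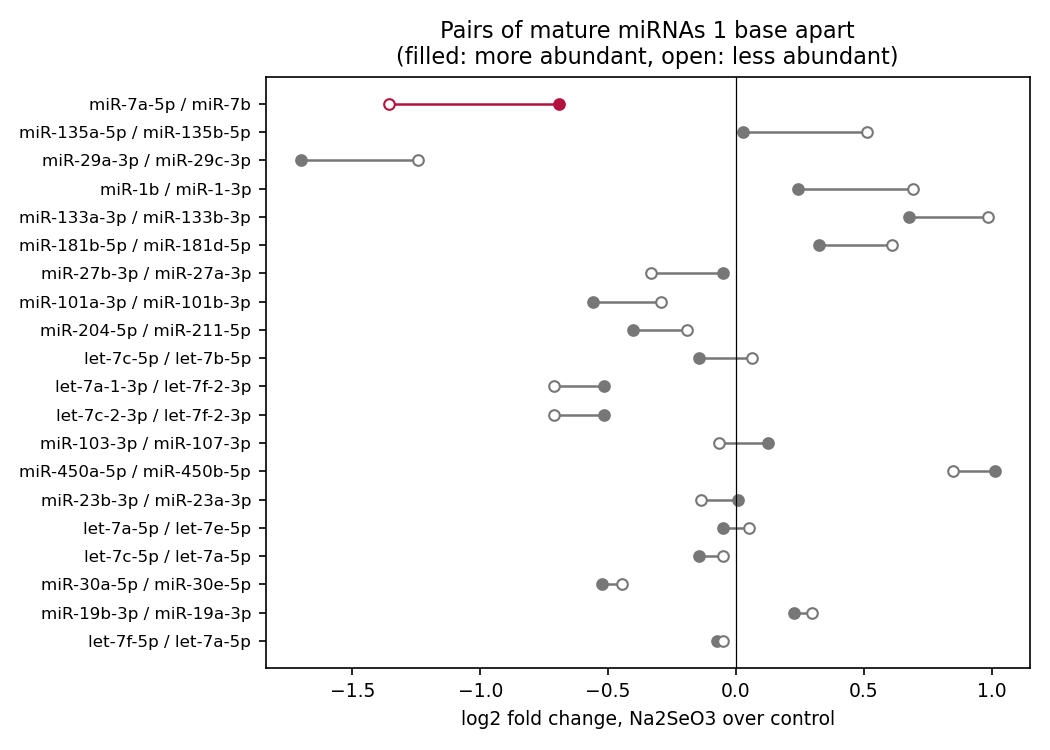
Fitted log2 fold change of Na2SeO3 over control (horizontal axis) for 20 pairs of rat miRNAs whose mature sequences differ at 1 base, with the more abundant member as a filled point, the less abundant one as an open point, and a line between them. The miR-7 pair, in red, spans from -0.69 to -1.36 and the other 19 pairs span less.

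Both arms passed the filter for 78 hairpin genes, which puts the arms of Mir7-1 beside those of other miRNAs (also chosen after the values were seen). The less abundant arm minus the more abundant arm was 0.85 on the log2 fold change scale for Mir7-1, the third highest of the 78. The median of the 78 was -0.09, and they ran from -1.18 to 1.18. Since miR-7a-5p is the sum of 2 copies, the value of Mir7-1 sets the 3p arm of one copy against the 5p arms of both. Its place carries no weight of its own, because the family was selected on the levels of miR-7a-5p.

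The profile of miR-7a-5p over the 6 libraries was set against those of 323 other rat miRNAs by the root mean square distance of log2 CPM, centred on each miRNA's own mean. Nearest to it were miR-30c-5p (a distance of 0.10), miR-342-3p (0.11), miR-145-5p (0.14), and the 2 names miR-129-1-3p and miR-129-2-3p (0.16 each), which are a single measurement here. The median distance of all was 0.49. Their log2 fold changes lay between -0.85 and -0.56. Scaling to library size only gave the same 5 names. miR-7b was farther from miR-7a-5p, at 0.36, than any of these.

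For miR-7b the same measure, applied after its values were seen, gave another list. Nearest were miR-200b-3p (0.14), miR-200a-3p (0.18), miR-184 (0.19), miR-132-5p (0.20), and miR-203a-3p (0.21), against a median distance of 0.75. Their log2 fold changes lay between -1.53 and -1.13. miR-200a, miR-200b, and miR-203a are known from epithelia. Since the distance uses the same 6 values by which the family was selected, neighbours have similar fold changes by construction, and nothing is read from the difference between the sets of neighbours.

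miRNAs of surface epithelium were lower in the same libraries as miR-7b and miR-7a-5p, as were several of the lens epithelium list. Of 14 listed names, 13 were counted and 8 could be tested, and all 8 had a negative log2 fold change, with a median of -0.99 beside 0.08 over all miRNAs tested. In the quasi-likelihood test of edgeR, 7 of the 8 fell at a Benjamini-Hochberg adjusted p-value of 0.05, a threshold that 34.6% of all miRNAs passed in either direction, and 4 of the 8 were DEmiRNAs. The summed level of the list was 7525 to 7764 CPM in the control libraries and 3302 to 3459 CPM in the Na2SeO3 libraries. miR-200b-3p fell from 1613 ± 187 to 590 ± 50.5 CPM (SD, n = 3 each, log2 fold change -1.45, adjusted p = 3.48e-05, edgeR). miR-203a-3p, which restrains the growth of epidermal stem cells, fell from 3733 ± 215 to 1610.4 ± 59.7 CPM (SD, n = 3 each, log2 fold change -1.21, adjusted p = 4.86e-05, edgeR), and miR-200a-3p fell by 1.19 on the log2 scale (adjusted p = 1.53e-04, edgeR). With library size only, 2 of the 8 were DEmiRNAs, and miR-203b-5p had no count in any library.

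Of the lens epithelium list, 7 of 8 names were tested, and all 7 had a negative log2 fold change, with a median of -0.33. Their sum was 130720 to 146300 CPM in the control libraries and 76625 to 90280 CPM in the Na2SeO3 libraries, with miR-184 as the most abundant name in both groups. At the adjusted p-value 2 of the 7 fell and 0 rose, beside 34.6% of all miRNAs that passed in either direction. miR-184 was the only DEmiRNA (log2 fold change -1.13, adjusted p = 3.48e-05 with edgeR). The other was miR-26a-5p, named after the values were seen (-0.33, adjusted p = 0.0478, edgeR), which held in 4 of 13 alternatives. With library size only miR-184 stood at -0.93, short of the fold change threshold. The part of epithelial content in the values of the miR-7 family was not tested.

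Markers of neurons and retina, where miR-7 is known, had a median near that of all miRNAs. Of 14 names for neurons and retina, all were counted and 8 could be tested, with a median log2 fold change of -0.08 beside 0.08 over all. None of the 8 was a DEmiRNA with edgeR, beside 16.4% of all miRNAs, or with DESeq2, and 4 had an unadjusted p-value under 0.05. The summed level of this list was 35899 to 43144 CPM in the control libraries and 41173 to 51499 CPM in the Na2SeO3 libraries, which overlapped. At the adjusted p-value alone, 3 names fell and 1 rose, or 4 of the 8 beside 34.6% of all miRNAs. The 3 that fell were the arms of miR-129, with the 2 names of identical counts among them. Of these arms, miR-129-5p held in 6 of 13 alternatives and the other two names in all 13. The 1 that rose was miR-9a-5p, named after the values were seen (0.43, adjusted p = 0.0478, edgeR), which held in 3 of 13 alternatives.

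The glia, muscle, and erythroid lists had higher sums in the Na2SeO3 libraries, the opposite direction to miR-7a-5p and miR-7b. The glia list (9 names, all counted, 4 tested) stood at 91.9 to 96.2 CPM in the control libraries and at 162 to 183.4 CPM in the Na2SeO3 libraries. Most of that rise was miR-219a-2-3p of oligodendrocytes, the only DEmiRNA of the list, at a mean of 4.13 and 78.4 CPM (log2 fold change 4.26, adjusted p = 2.04e-06, edgeR). miR-338-3p, another glial name given after its values were seen, lay the other way at 24.95 and 12.4 CPM, without overlap, and did not pass (-0.93, adjusted p = 0.0519, edgeR). It was a down-regulated DEmiRNA with upper-quartile scaling and without Na2SeO3 library 2. The muscle list (11 of 16 names counted, 7 tested) stood at 17660 to 22451 and at 26985 to 31641 CPM, and miR-206-3p was its only DEmiRNA (log2 fold change 1.75, adjusted p = 3.48e-05, edgeR). At the adjusted p-value 4 of the 7 rose and 0 fell, beside 34.6% of all miRNAs that passed in either direction. Besides miR-206-3p these were miR-1-3p, miR-133a-3p, and miR-133b-3p. With library size only, without control library 1, and without Na2SeO3 library 1, 2 were DEmiRNAs, with miR-133b-3p as the second. The adjusted p-value of miR-133b-3p held in 10 of 13 alternatives, that of miR-133a-3p in 12, and that of miR-1-3p in all 13. miR-499-5p lay the other way without overlap, at 761 and 540.0 CPM, and did not pass (-0.49, adjusted p = 0.068, edgeR), although it passed the adjusted p-value in 5 of 13 alternatives. These 4 names besides miR-206-3p are given after their values were seen. The erythroid list (4 of 5 names counted, 3 tested) stood at 254 to 306 and at 404 to 518 CPM, with miR-486 as its only DEmiRNA (log2 fold change 1.12, adjusted p = 0.0015, edgeR), which fell short of the fold change threshold without Na2SeO3 library 1. miR-451-5p, which is abundant in red cells and is also named after its values were seen, stood at 127.9 and 133.1 CPM and did not pass (0.06, adjusted p = 0.833, edgeR), so the higher sum was mostly that of miR-486. The leukocyte list (10 names, 6 tested) and the vessel and mesenchyme list (9 of 11 names counted, 9 tested) held no DEmiRNA with edgeR or DESeq2 (0 and 3 names with an unadjusted p-value under 0.05). Of all miRNAs tested, 16.4% were DEmiRNAs with edgeR. The leukocyte sums overlapped, at 981 to 1171 against 843 to 1027 CPM. Those of vessel and mesenchyme were lower in the Na2SeO3 group without overlap, by a narrow margin, at 56985 to 65739 against 51252 to 56912 CPM. In that list 3 of the 9 fell at the adjusted p-value and 0 rose, beside 34.6% of all miRNAs that passed in either direction. They were miR-143-3p (-0.60), miR-145-3p (-0.73), and miR-145-5p (-0.85), the last a neighbour of miR-7a-5p in profile. The other two are named after their values were seen, and miR-145-3p held in 10 of 13 alternatives. Of the listed names, 5 of muscle (miR-1-5p, miR-133b-5p, miR-133c, miR-208a-5p, and miR-208b-5p), 2 of vessel and mesenchyme (miR-126b and miR-214-5p), and miR-451-3p of the erythroid list had no count in any library. The part of any of these tissues in the values of the family was not tested.

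**Figure D5:**
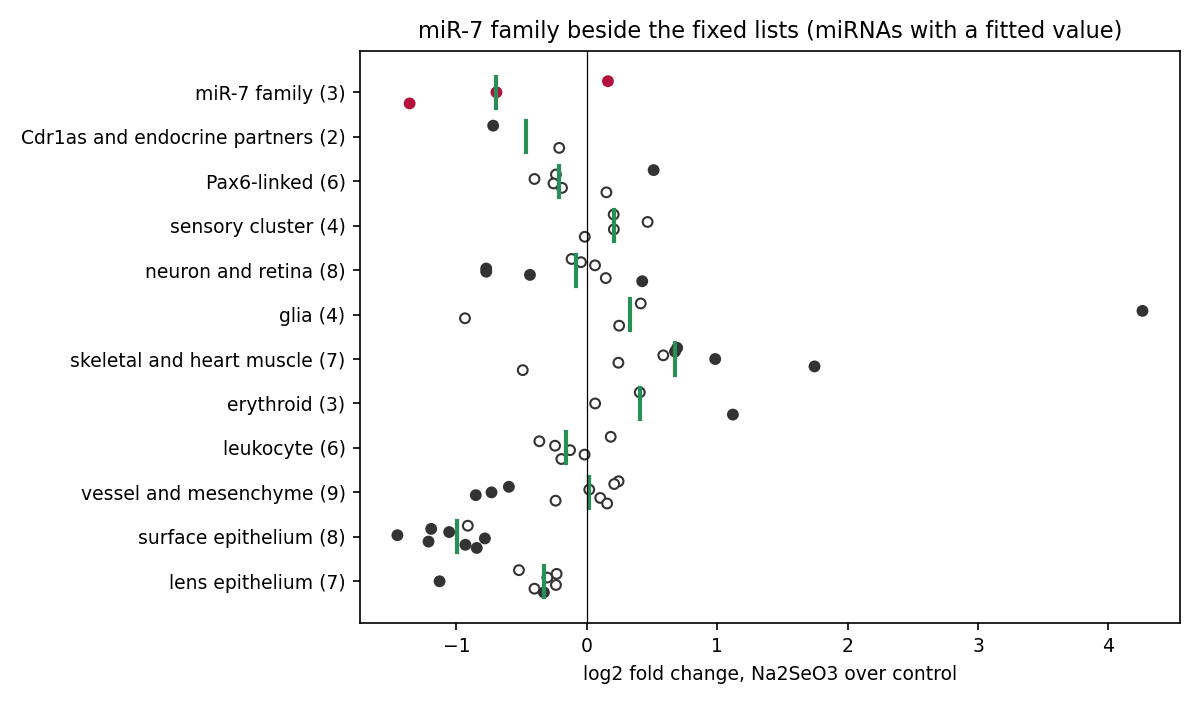
Fitted log2 fold changes of Na2SeO3 over control (horizontal axis) for the 3 miR-7 members with a fitted value (red, not tested) and for the tested miRNAs of each list, with filled points for an adjusted p-value under 0.05 in edgeR and a green line at the median. The number of miRNAs stands in parentheses. The surface epithelium list lies at a median of -0.99, the list of neuron and retina at -0.08, and that of the sensory cluster at 0.21.

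Of the miRNAs tied to miR-7 in other tissues, miR-375-3p was lower in the Na2SeO3 group. This miRNA of pancreatic islets stood at 239, 293, and 230.4 CPM in control libraries 1 to 3 and at 179, 152.5, and 133.1 CPM in Na2SeO3 libraries 1 to 3, so the groups did not overlap. Its log2 fold change was -0.72 (adjusted p = 0.0081 with edgeR, standard error 0.18). That is close to the value of miR-7a-5p and short of the fold change threshold. Without control library 2 its adjusted p was 0.0552, and over all alternatives it ranged from 8.8e-04 to that value. miR-671, which can cut Cdr1as, was counted 58, 47, and 35 times in the control libraries and 19, 21, and 11 times in the Na2SeO3 libraries. Its groups overlapped at 20.0, 24.3, and 22.6 CPM against 27.7, 19.1, and 12.1 CPM, and it did not pass the test (log2 fold change -0.21, adjusted p = 0.647, edgeR). In all, 2 of the 5 names of this list were tested, and miR-375-5p had no count. No DEmiRNA was among the 2 with edgeR, beside 16.4% of all miRNAs, or with DESeq2 (1 had an unadjusted p-value under 0.05).

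No tested miRNA tied to Pax6 was a DEmiRNA, beside 16.4% of all miRNAs tested, and with 6 names nothing is read from this. The list held 7 names, all counted, and 6 were tested, with a median log2 fold change of -0.21 beside 0.08 over all. DESeq2 called none of the 6 by the same thresholds either, and 2 of the 6 had an unadjusted p-value under 0.05 in edgeR. Without Na2SeO3 library 3, a seventh name, miR-135b-3p, passed the filter and was an up-regulated DEmiRNA, with at most 10 counts in a library. miR-204-5p, which lies downstream of Pax6 in the eye, was at about the same level as miR-7a-5p, with 14710, 17039, and 13976 CPM in control libraries 1 to 3 and 14387, 11111, and 9135 CPM in Na2SeO3 libraries 1 to 3. These groups overlapped, and the log2 fold change of -0.40 did not pass (adjusted p = 0.0869, edgeR), although it passed the adjusted p-value in 2 of 13 alternatives, DESeq2 among them. miR-211-5p, its close relative, did not pass either (-0.19, adjusted p = 0.373), nor did miR-204-3p (-0.24, adjusted p = 0.411) and miR-211-3p (-0.26, adjusted p = 0.489, all edgeR). miR-135b-5p, which has been reported to act on Pax6 and is named after its values were seen, rose by the adjusted p-value alone (0.51, adjusted p = 0.0348, edgeR), in 6 of 13 alternatives. The sensory cluster of miR-183, miR-96, and miR-182, abundant in lens and retina, had 4 of its 5 names tested, with sums of 144900 to 195740 CPM in the control libraries and 186340 to 195750 CPM in the Na2SeO3 libraries. Of these 4, 0 passed an adjusted or an unadjusted p-value of 0.05 in edgeR, and 0 passed the adjusted one in DESeq2. With library size only, miR-182 and miR-183-5p passed the adjusted p-value (0.0158 and 0.0184, edgeR), named after the values were seen. Pax6 itself and the other messenger RNAs are not analysed here.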

How the data were processed

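Small RNA was sequenced from lens capsules of 3 control and 3 Na2SeO3 rat pups. After trimming (Cutadapt, Fqtrim) and a quality check (FastQC), the authors aligned the reads to the rat genome of Ensembl using miRDeep, with HISAT2 also named, and deposited raw read counts per miRNA name, neither normalized nor pooled. Genome build and tool versions are not given in the sources used here. The members and lists were chosen with earlier results of these data known. Names with few reads were removed (filterByExpr, minimum count 10), TMM scaling was applied, and the effect of group was fitted by quasi-likelihood in edgeR 4.0.16 (R 4.3.3) and adjusted over 341 miRNAs. The standard error is the log2 fold change divided by the root of F. Log2 CPM used a prior count of 2. Columns were matched to samples by title. No library was a copy of another (chi-square of at least 28.0 per degree of freedom). The procedure was tested on simulated data. Named miRNAs were the members, the 5 nearest to miR-7a-5p, up to 3 DEmiRNAs per list, and the tested arms of miR-671, miR-375, miR-204, and miR-211. Any other miRNA was named after its values were seen. No batch is given, and p-values measure the spread between these 6 lenses. Alternatives were other scalings and filters, DESeq2 1.42.0, a replicate block, and leaving out each library. Sequences and gene positions came from RefSeq (GRCr8).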

Additional observations from a re-analysis of the deposited data

How the results depend on the processing

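Scaling to library size only moved the log2 fold change of miR-7b from -1.36 to -1.15, by more than the spread between libraries. The other scalings, filters, DESeq2, and the sets of libraries left it between -1.48 and -1.27, and they left miR-7a-5p between -0.87 and -0.53, where library size only gave -0.48. With each library left out in turn, miR-7a-1-3p ran from -0.052 to 0.30. The share of miR-7b, lower by -1.53 percentage points in the Na2SeO3 group, ran from -1.70 to -1.33 in the same fits. The number of DEmiRNAs in the fit used here was 56 (39 up-regulated and 17 down-regulated). The paper reports fewer and states neither its filter nor its scaling, so tool defaults were used here. The number was 63 (53 and 10) with library size only, 54 (32 and 22) with upper-quartile scaling, and 42 with at least 10 counts in every library. Control and Na2SeO3 libraries share the numbers 1 to 3, and no label ties equal numbers to each other. Across miRNAs, the deviations of equally numbered libraries had correlations of -0.17, -0.18, and -0.26, and 0 of the 6 libraries deviated most like its own number, so the numbers were not taken as pairs. With the replicate block, 49 miRNAs were DEmiRNAs, and miR-7a-5p and miR-7b stood at -0.66 and -1.36. Few counted reads limit the 3p arms, with 3 to 8 counts of miR-7a-2-3p per library.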
